A study of Mus musculus with 9 samples.

Results

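The hearts described here are the 3 wild-type neonatal mouse hearts of a study of *miR-1*, taken at postnatal day (P) 2 on a mixed 129 x C57BL/6 strain, and they make up 3 of the 9 arrays of the series. They were chosen by their sample titles alone, as replicates 1 to 3. The other 6 arrays carry P2 hearts of the same mixed strain, 3 from *miR-1-1* null mice, in which the *miR-1-1* precursor locus is deleted on both alleles, and 3 from double-heterozygous mice (*miR-1-2* +/-: *miR-1-1* +/-), which lack one allele of each locus. The wild-type animals carry no deletion, and the mutant mice carry theirs in every cell. Replicates are numbered through the series, 1 to 3 for wild-type, 4 to 6 for null and 7 to 9 for double-heterozygous arrays. The authors amplified total heart RNA, hybridized it to Affymetrix arrays of the mouse Gene ST type and deposited log2 values after RMA, a method that corrects background, equalizes the distribution of signals between arrays and summarizes the probes of each probe set. The labels do not say whether an array held the RNA of 1 heart or of several, nor that the arrays came from separate litters, so every p-value below measures the spread between these arrays.

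The heart at this age is in transition. Cardiomyocytes of the newborn mouse still divide but withdraw from the cell cycle within the days that follow, fuel use moves from glucose and lactate toward fatty acids, and isoforms of the contractile apparatus that dominate before birth give way to adult ones. The working muscle is built from sarcomeres, in which myosin thick filaments pull on actin thin filaments anchored at Z-discs, and contraction is switched by calcium released from the sarcoplasmic reticulum. Endothelial cells, fibroblasts, smooth muscle, pericytes and macrophages share the organ with the cardiomyocytes.

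Of 41345 probe sets on the array, 23521 named a single gene, and keeping for each gene the probe set with the highest mean over all 9 arrays left 22180 genes. A level is a log2 RMA value, so that a difference of 1 is a 2-fold difference in signal. How bright a probe set is depends on its probes as well as on the RNA, so the order of genes by signal is not an order of transcript numbers, and values of different genes are set side by side only as such. As a measure of background, the 1394 olfactory and vomeronasal receptor genes, which the heart is not known to use as a class, had a 95th percentile of 2.88, and a gene was called above background when its lowest wild-type array exceeded that level. This was the case for 10470 genes (47.2%), among them 9856 of 18964 protein-coding genes and 297 of 1926 long noncoding RNA genes. The number of arrays limits the precision of everything that follows.

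The wild-type arrays resembled one another closely, with Pearson's r across genes of 0.986, 0.987 and 0.987 for the possible pairs (genes are not independent replicates). Wild-type arrays correlated with mutant arrays at 0.982 to 0.988, which spans the same values. Medians of the gene levels were 2.88, 2.89 and 2.88 in replicates 1, 2 and 3, as RMA enforces. The replicates differed in sex-linked genes. *Xist*, the noncoding RNA expressed from the inactive X chromosome, was at 7.74 in replicate 1 and at 1.44 and 1.49 in replicates 2 and 3, while the Y-linked *Eif2s3y* was at 1.34 in replicate 1 and at 6.39 and 6.45 in the others. *Uty* and *Kdm5d*, both Y-linked, followed *Eif2s3y*, and of the 6 mutant arrays only double-heterozygous replicate 7 had this pattern of replicate 1. Replicate 1 thus had the sex-linked signal of female tissue and replicates 2 and 3 that of male tissue. Replicate 1 also differs in the genes described later, and in these 3 arrays sex cannot be told apart from other differences of that array. The probe set of the *Mir1a-1* precursor did not check the genotypes, since it lay under the background level already in wild-type hearts, at 1.29, 1.85 and 2.21, whereas *Mir133a-2*, encoded at the same locus, was at 5.63, 6.38 and 5.45 in wild-type arrays and between 3.07 and 4.51 in null arrays (both genes were chosen after their values were seen).

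Most of the strongest signal in these hearts came from 3 sources, the mitochondrial respiratory chain, the contractile apparatus and the ribosome. The 30 genes of highest mean all lay at or above 11.01, against a median of 2.88 over all genes, and included 7 genes of the mitochondrial genome and 5 genes of cytosolic ribosomal proteins. These genes were also the most even between hearts, with a median range between the 3 arrays of 0.0826, and 28 of the 30 had a range under 0.3. Of the 30, 28 were in the top 30 of every wild-type array. RMA gives all arrays the same distribution, and its part in these small ranges was not tested.

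**Figure D1:**
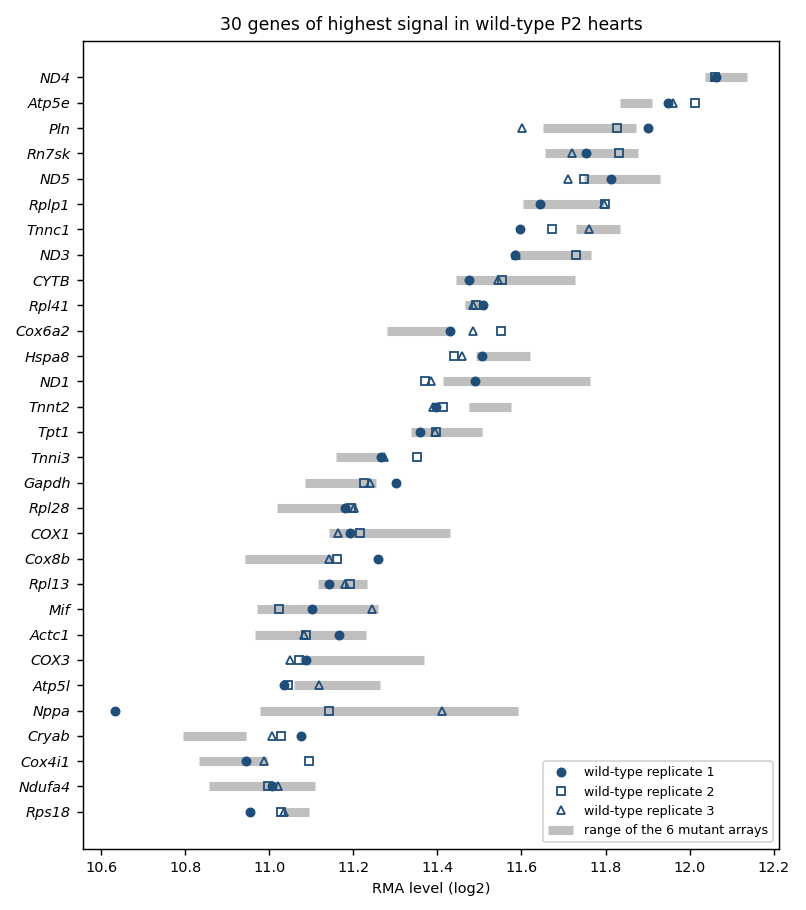
Log2 RMA level of the 30 genes of highest wild-type mean, 1 row a gene, with each wild-type replicate as a symbol and the range of the 6 mutant arrays as a grey bar. *Nppa* is the row in which the wild-type replicates lie furthest apart, from 10.63 to 11.41, and the wild-type symbols of *Atp5e*, *Tnnt2* and *Cryab* lie outside the grey bar.

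The highest signal belonged to *ND4*, a complex I subunit encoded in the mitochondrial genome, at 12.06 on each of the 3 arrays. *ND5*, *ND3* and *ND1* of the same complex, *CYTB* of complex III and *COX1* and *COX3* of complex IV, all from the mitochondrial genome, were among the 30 too. *ND5* was at 11.81, 11.75 and 11.71 and *CYTB* at 11.48, 11.55 and 11.54. These transcripts differed between the hearts by 0.15 or less. Of the nuclear subunits, *Atp5e* of the ATP synthase was at 11.95, 12.01 and 11.96, and the muscle isoform *Cox6a2* of cytochrome oxidase at 11.43, 11.55 and 11.48. *Cox8b*, also a muscle isoform, was at 11.26, 11.16 and 11.14.

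The sarcomere and its calcium switch supplied the next group. *Pln*, which encodes phospholamban, the brake on the calcium pump of the sarcoplasmic reticulum, ranked behind *ND4* and *Atp5e*, at 11.90, 11.83 and 11.60. Cardiac troponin C (*Tnnc1*), the calcium sensor of the thin filament, was at 11.60, 11.67 and 11.76. The troponin T gene *Tnnt2* was at 11.40, 11.41 and 11.39 and the troponin I gene *Tnni3* at 11.27, 11.35 and 11.27, so that all parts of the cardiac troponin complex were in the top 30. Cardiac alpha-actin (*Actc1*) was at 11.17, 11.09 and 11.08, and *Cryab*, a small heat shock protein bound to Z-discs and desmin, at 11.08, 11.03 and 11.01.

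*Nppa* stood apart among these bright genes. It encodes atrial natriuretic peptide, a hormone that the ventricles make before birth and the atria throughout life. Its level was 10.63 in replicate 1, 11.14 in replicate 2 and 11.41 in replicate 3, a range of 0.778, which moved it from rank 50 to rank 22 and rank 13 of all genes. The mutant arrays, between 10.98 and 11.59, were all above replicate 1 and overlapped the other replicates. Its neighbour in function *Nppb*, the B-type peptide, was highest in replicate 2, at 7.76, 8.64 and 7.95.

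Widening the view to the brightest 1% gave 222 genes with a mean of 9.04 or more. Among them were 26 genes of cytosolic ribosomal proteins, 32 genes of the oxidative phosphorylation lists and 21 genes of the sarcomere, calcium and cardiomyocyte lists. The order at the top was shared with the mutant hearts, as 95 of the 100 brightest wild-type genes were among the 100 brightest of *miR-1-1* null hearts, and 95 among those of double-heterozygous hearts. *Vmn1r233*, a vomeronasal receptor gene, also had a bright probe set, at 10.88, 10.76 and 10.86, and what its probes match was not tested.

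The contractile genes were next described by filament. Of 16 myosin and thick filament genes, 15 were above background, with a median of 7.05, and of 18 thin filament genes 17 were, with a median of 7.93. All 18 genes of the Z-disc, the M-band and titin were above background, with a median of 8.98. Among thick filament genes the atrial regulatory light chain *Myl7* was at 10.79, 10.87 and 10.89, the ventricular essential light chain *Myl3* at 10.60, 10.61 and 10.69 and the alpha myosin heavy chain *Myh6* at 10.25, 10.23 and 10.26. These 3 genes varied by no more than 0.11 between hearts. *Mybpc3*, the myosin-binding protein that links thick and thin filaments, was at 8.95, 8.82 and 8.81. *Mybpc2*, its fast skeletal relative, stayed at or under 2.74.

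At the Z-disc, *Csrp3*, a stretch-linked LIM protein, was at 10.32, 10.44 and 10.18, titin (*Ttn*) at 10.21, 10.13 and 10.24, *Myoz2* at 9.96, 10.02 and 9.95 and alpha-actinin-2 (*Actn2*) at 9.56, 9.38 and 9.66. *Ankrd1*, a stress-responsive partner of titin, was less even and lowest in replicate 1, at 8.89, 9.71 and 9.57. *Hspb7*, a small heat shock protein of the sarcomere outside the lists (chosen after its values were seen), was 1 of only 3 genes above a mean of 8 with a range over 1, at 9.50, 8.62 and 8.21. Its mutant arrays, from 8.43 to 8.79, sat between replicates 1 and 3.

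Many muscle genes are driven by serum response factor and its cofactor myocardin through a short sequence, the CArG box. The RefSeq promoter windows of GRCm38.p6, from 250 bases before to 50 bases after each start, were searched for it on both strands, with 45 genes of the 3 sarcomere lists found in the table. Of these, 10 held a CArG box (22.2%), against 1.63% of all 32851 windows. They were *Acta1*, *Actc1*, *Fhl2*, *Ldb3*, *Myl3*, *Myl6*, *Myl7*, *Myl9*, *Myom1* and *Nebl*. A match is a description of the letters and does not show that the factor binds. The 4 stretches below belong to genes whose levels carry the account of isoforms, and each runs from 150 bases before to 20 bases after the start. They lie at chr2:114052856-114053025 on the minus strand (*Actc1*), chr8:123894756-123894925 on the minus strand (*Acta1*), chr11:5898763-5898932 on the minus strand (*Myl7*) and chr9:110763528-110763697 on the plus strand (*Myl3*). Capitals mark the CArG box.
Actc1: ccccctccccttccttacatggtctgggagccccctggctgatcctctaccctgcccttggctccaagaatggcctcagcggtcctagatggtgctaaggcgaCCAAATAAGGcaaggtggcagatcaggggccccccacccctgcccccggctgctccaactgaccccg
Acta1: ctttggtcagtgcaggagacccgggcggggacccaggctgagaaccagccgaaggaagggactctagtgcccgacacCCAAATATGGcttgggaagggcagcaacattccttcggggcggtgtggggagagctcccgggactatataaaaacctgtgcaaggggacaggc
Myl7: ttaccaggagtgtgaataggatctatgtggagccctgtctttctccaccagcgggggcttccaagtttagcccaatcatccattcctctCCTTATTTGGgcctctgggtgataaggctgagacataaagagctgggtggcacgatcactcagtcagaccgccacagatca
Myl3: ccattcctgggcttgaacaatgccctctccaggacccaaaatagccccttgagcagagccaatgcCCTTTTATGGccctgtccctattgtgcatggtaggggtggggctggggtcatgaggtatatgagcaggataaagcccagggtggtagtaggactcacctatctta

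The first base of the box lies 47 bases before the start in *Actc1*, 73 in *Acta1*, 61 in *Myl7* and 85 in *Myl3*. Genes with the same kind of box did not share a level or a pattern between the hearts. *Actc1* and *Myl3* each varied by no more than 0.09, whereas *Acta1*, the skeletal alpha-actin that the fetal heart also uses, was at 8.61, 7.85 and 7.53, highest in replicate 1.

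Isoform pairs were measured in 27 of the 30 pairs listed. Because the probes of the members of a pair differ, the size of the gap between them within an array is not a ratio of transcripts, and only its change from array to array is comparable. In the 3 wild-type hearts the gap was steadiest for *Pfkm* minus *Pfkl* (SD 0.03), *Slc25a4* minus *Slc25a5* (SD 0.04) and *Myl3* minus *Myl4* (SD 0.04, all n = 3). The ventricular light chain *Myl3* exceeded its atrial and fetal counterpart *Myl4* in signal by 6.09, 6.16 and 6.14, and cardiac troponin I exceeded the fetal slow skeletal form *Tnni1* by 2.45, 2.53 and 2.57. *Tnni1* itself, at 8.81, 8.82 and 8.70, remained well above background at P2.

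The widest gap between hearts was that of the calsequestrins, the calcium-binding proteins of the sarcoplasmic reticulum. Cardiac *Casq2* exceeded skeletal *Casq1* by 4.66, 4.02 and 3.10 (SD 0.79, n = 3), while the 6 mutant arrays lay between 3.78 and 4.13. *Casq1* was at 4.87, 5.57 and 6.27, lowest in replicate 1 and highest in replicate 3, with *Casq2* at 9.53, 9.59 and 9.36. *Actc1* minus *Acta1* was next, at 2.56, 3.23 and 3.55, followed by *Nppa* minus *Nppb* at 2.87, 2.50 and 3.46.

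The gap between the alpha and beta myosin heavy chains, *Myh6* of the adult and *Myh7* of the fetal mouse ventricle, was 2.42, 2.06 and 2.71 in the wild-type hearts and 2.56 to 3.98 in the mutant hearts. Replicate 3 overlapped the mutant range, and replicates 1 and 2 were below it. The mean difference of wild-type minus mutant arrays was -0.97 (exact two-sided permutation p = 0.0476, adjusted over 27 pairs 0.143), which did not pass. *Myh6* hardly moved between the wild-type hearts, and *Myh7* was at 7.83, 8.18 and 7.55.

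**Figure D2:**
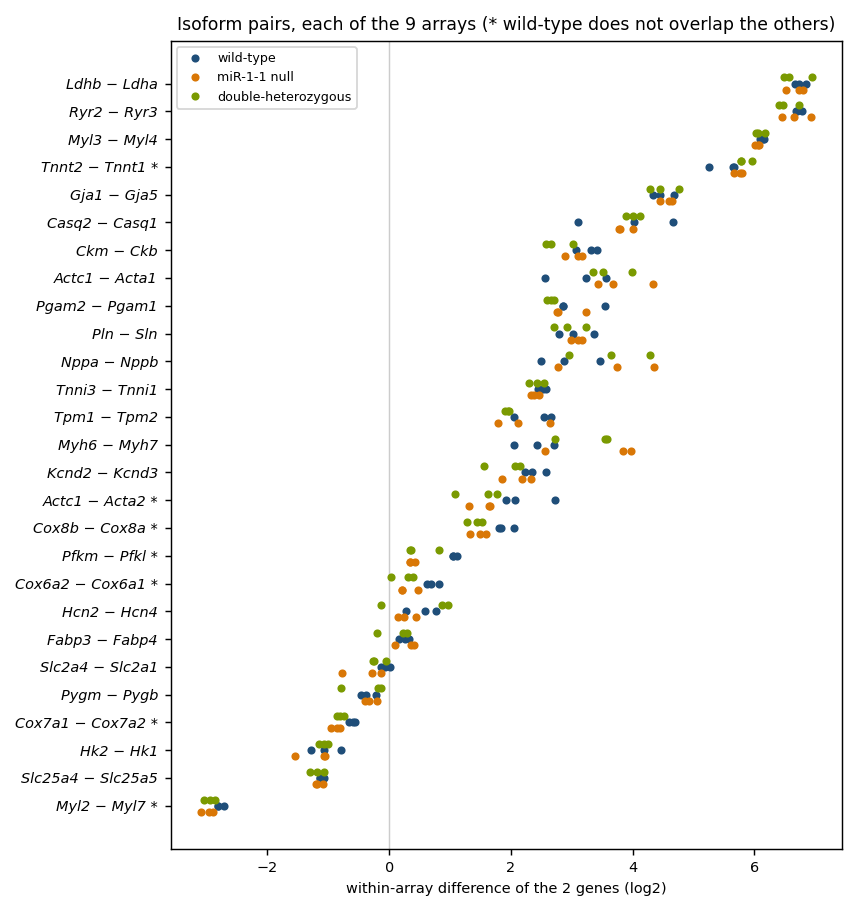
Difference between the log2 RMA levels of the genes of each isoform pair within each of the 9 arrays, coloured by genotype, for the 27 pairs measured; an asterisk marks the 7 pairs in which the wild-type arrays do not overlap the other 6. *Casq2* minus *Casq1* shows the widest wild-type spread, from 3.10 to 4.66, and *Pfkm* minus *Pfkl* the narrowest.

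In 7 of the 27 pairs the wild-type arrays did not overlap the other 6. Over single genes above background, 498 of 10470 (4.76%) showed no such overlap. That share is for levels of single genes and is not a background for differences between genes. The pairs were also chosen with earlier results of these data known. Each of the 7 pairs reached the smallest two-sided p that 3 arrays against 6 allow (exact permutation p = 0.0238), but the smallest value adjusted over the 27 pairs was 0.0918, so 0 pairs passed, while 9 had an unadjusted p under 0.05. A limma fit to the pair differences of all arrays called 4 of the 27.

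Of these 7, 3 were cytochrome oxidase pairs, in which the muscle form was higher relative to the ubiquitous form in wild-type hearts. *Cox6a2* minus *Cox6a1* was 0.62, 0.81 and 0.69 against 0.02 to 0.47 in the mutant arrays. *Cox8b* minus *Cox8a* was 1.84, 2.05 and 1.80 against 1.29 to 1.58, and *Cox7a1* minus *Cox7a2* -0.60, -0.67 and -0.56 against -0.95 to -0.74. The muscle phosphofructokinase *Pfkm* likewise exceeded the liver form *Pfkl* by 1.11, 1.05 and 1.05 against 0.34 to 0.82.

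The remaining 3 pairs were sarcomeric. The cardiac actin *Actc1* exceeded the smooth muscle actin *Acta2* by 1.93, 2.06 and 2.72 in wild-type hearts and by 1.09 to 1.76 in mutant hearts. *Actc1* itself was at 10.97 to 11.23 in the mutant arrays and overlapped the wild-type ones, so most of this shift lay in *Acta2*. *Myl2* minus *Myl7*, the ventricular against the atrial regulatory light chain, was -2.71, -2.81 and -2.81 against -3.09 to -2.85. *Tnnt2* minus the slow skeletal *Tnnt1* ran the other way, at 5.653, 5.669 and 5.258 against 5.673 to 5.969, a very narrow separation. After another normalization (cyclic loess) its adjusted permutation p was 0.257, against 0.0918 for the deposited values. Limma, adjusted over the pairs, called *Pfkm* minus *Pfkl* (adjusted p = 0.0084), *Cox8b* minus *Cox8a* (0.0116), *Cox6a2* minus *Cox6a1* (0.0211) and *Actc1* minus *Acta2* (0.0356).

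Oxidative phosphorylation had the highest list medians of the pathways. All 25 complex I genes measured were above background, with a median of 8.99, and 31 of 32 genes of complexes II to V were, with a median of 9.55 that exceeded 99.4% of all genes. *Ndufa4* was at 11.01, 11.00 and 11.02 and *Cox4i1* at 10.94, 11.10 and 10.99. The single gene under background was *Atp5g1*, at 2.76, 1.02 and 1.41. Between the hearts these lists were even, with median ranges of 0.16 and 0.12, and *Atp5g1* was the only gene of either with a range over 1.

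Genes of fatty acid uptake and oxidation were all above background (22 of 22), with a median of 8.52. *Fabp3*, the fatty acid carrier of cardiomyocytes, was at 10.79, 10.80 and 10.76, *Hadha* of mitochondrial beta-oxidation at 10.36, 10.29 and 10.20 and the fatty acid transporter *Cd36* at 10.02, 10.07 and 9.90. Of the regulators in the list, *Ppargc1a*, a coactivator of mitochondrial genes, was at 8.25, 7.43 and 7.31, and the fatty acid receptor *Ppara* at 5.28, 4.51 and 4.16, each highest in replicate 1.

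Of the 17 genes of glycolysis and glucose entry, 16 were above background, with a median of 6.02. *Gapdh* was at 11.30, 11.22 and 11.24 and the heart lactate dehydrogenase *Ldhb* at 9.63, 9.65 and 9.52. *Ldha* was at 2.97, 2.80 and 2.79, at about the background level. The glucose transporters *Slc2a4* (insulin-responsive) and *Slc2a1* (basal) were at 5.91, 5.71 and 5.80 and at 6.04, 5.78 and 5.78. Of the 24 ribosomal protein genes, 17 were above background, and the other 7, among them *Rpl11* and *Rplp2*, lay at or under 3.27 on every array although ribosomes need them, so a dim probe set in these data does not show that a gene is silent.

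Calcium handling genes were above background in 17 of 18 cases, with a median of 7.22. After *Pln* came the calcium pump *Atp2a2* at 10.86, 10.90 and 10.83, *Casq2*, and the calcium release channel *Ryr2* at 9.35, 9.29 and 9.25. Sarcolipin (*Sln*), a small inhibitor of the pump that is typical of atria, was highest in replicate 2, at 8.54, 9.04 and 8.58. Of 17 ion channel and connexin genes, 14 were above background at a lower median of 4.88. The ventricular connexin *Gja1* was at 8.83, 9.28 and 9.19, the atrial connexin *Gja5* at 4.49, 4.83 and 4.52 and the potassium channel subunit *Kcne1* at 8.86, 8.62 and 8.44.

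Among 22 transcription factors of heart development, 19 were above background, with a median of 5.94. *Mef2a* was at 8.52, 8.58 and 8.50, *Tbx20* at 8.22, 8.32 and 8.22, and myocardin (*Myocd*) at 8.00, 7.82 and 7.76. *Gata6* was at 7.56, 7.51 and 7.39 and *Gata4* at 6.00, 6.04 and 6.22. *Hand1*, *Tbx2* and *Gata5*, which act earlier in cardiac development, were the 3 under background. *Nkx2-5*, a defining factor of the cardiac lineage, was the dimmest of the cardiomyocyte markers, at 5.61, 5.32 and 5.07.

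Markers of cardiomyocytes from ventricle and atrium were both detected. All 12 cardiomyocyte markers were above background with a median of 10.22, and their median range between hearts was 0.12. Ventricular markers were above background in 6 of 7 cases (median 6.51) and atrial markers in 9 of 10 (median 4.84). In bulk RNA, fewer cells of a type and less RNA per cell cannot be told apart. Of the 10 atrial markers, 5 were lowest in replicate 1, 2 of them by over 0.3, *Bmp10* and *Nppa*. *Bmp10*, a growth factor of the atria at this age, was at 3.19, 4.94 and 5.09, lowest in replicate 1, with mutant arrays from 4.31 to 5.48. *Kcna5*, an atrial potassium channel, had the next widest range of the list, at 3.48, 3.57 and 2.50, and was lowest in replicate 3. *Myl7*, *Nppa* and *Bmp10* were each lowest in replicate 1 and highest in replicate 3, *Myl7* by only 0.11. The list as a whole did not follow them. Its median marker was -0.09, 0.15 and -0.09 from its wild-type mean in replicates 1, 2 and 3. Of the 10, 4 were highest and 4 lowest in replicate 3. How much atrial tissue each array held was not tested.

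Of the other cells of the heart, fibroblast markers were the brightest (11 of 11 above background, median 7.54), followed by endothelial markers (12 of 12, median 5.79) and smooth muscle and pericyte markers (11 of 11, median 5.46). *Col1a2* was at 9.87, 9.60 and 9.81 and *Postn*, a matrix protein of young cardiac fibroblasts, at 9.74, 9.64 and 9.73. *Cdh5*, the cadherin of endothelial junctions, was at 8.92, 8.94 and 8.93. Smooth muscle genes were less even. *Acta2* was at 9.24, 9.02 and 8.36, *Cnn1* at 6.55, 5.57 and 5.52 and *Tagln* at 5.26, 4.54 and 4.34, with replicate 1 the highest in each.

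Lymphatic (4 of 5), endocardial (4 of 5), epicardial (6 of 8) and conduction system markers (4 of 8) were above background in part, at list medians between 3.63 and 4.33. *Prox1*, a factor of lymphatic endothelium that cardiomyocytes share, was at 6.16, 6.57 and 6.64, and *Upk3b*, of the mesothelium, at 5.26, 5.45 and 5.47. Macrophage markers were above background in 8 of 10 cases, led by *Cx3cr1* at 5.39, 5.52 and 5.65. Of the 10, 8 were highest in replicate 2, among them *Cd68* at 4.74, 5.43 and 4.51. Lymphocyte and other leukocyte markers were not above background in 8 of 10 cases, the exceptions being the neutrophil genes *S100a8* at 6.46, 6.43 and 6.39 and *S100a9* at 5.72, 5.47 and 5.72.

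Markers of tissues outside the heart were mostly at background, with 1 of 6 liver genes, 1 of 6 lung and thymus genes and 1 of 8 glia and neuron genes above it. Of 10 skeletal muscle markers 4 were above background, of which *Ckm* and *Acta1* are also used by the heart, and the lineage factor *Myog* was at 2.12, 1.97 and 1.79. The defining brown fat gene *Ucp1* was at 4.95, 3.11 and 2.34, above the background level in replicate 1 and under it in replicate 3. *Adipoq*, *Plin1* and *Lep* of fat cells stayed at or under 2.73 on every wild-type array. The major adult globin genes have no probe set of a single gene here, and *Tfrc*, the transferrin receptor that dividing cells also use, was at 6.92, 7.46 and 7.69.

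**Figure D3:**
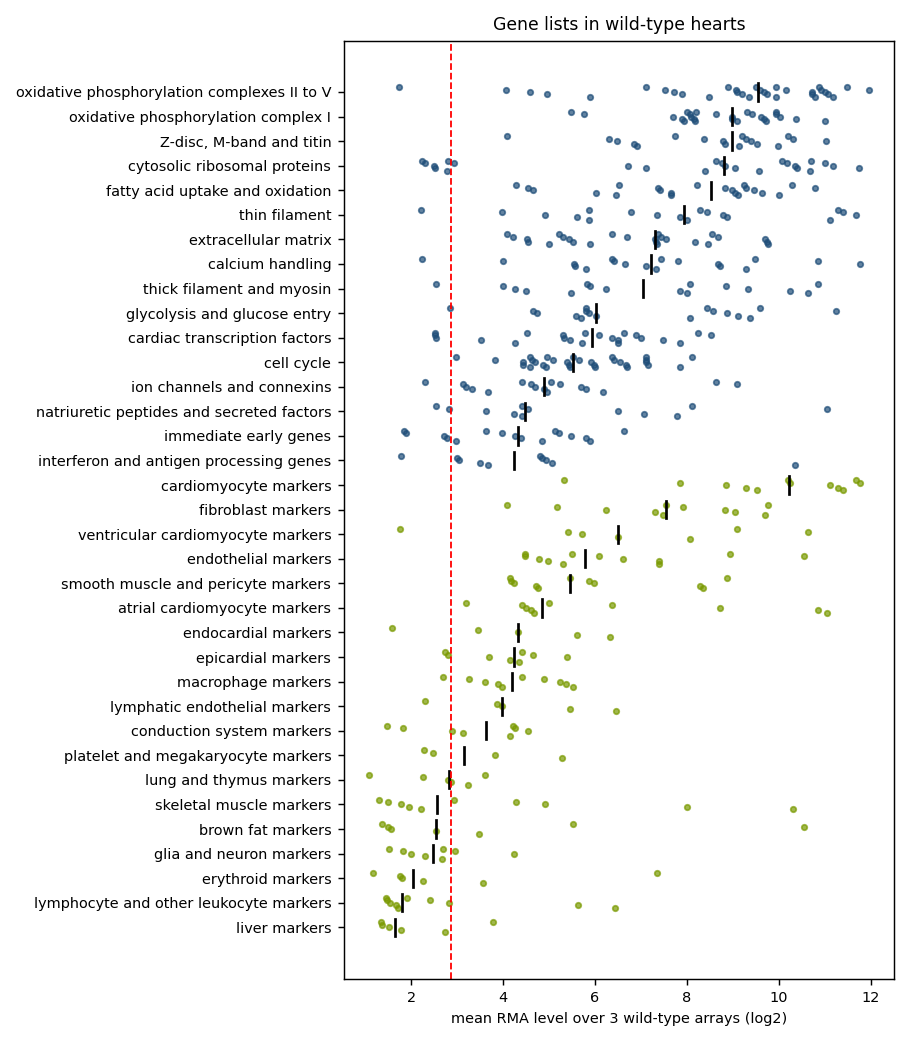
Mean log2 RMA level over the 3 wild-type arrays of every measured gene of 35 lists, 1 row a list, with pathways in blue, cell type and tissue markers in green, the list median as a black bar and the background level of 2.88 as a dashed line. Medians run from 10.22 for cardiomyocyte markers to under the dashed line for most tissues outside the heart.

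All 25 extracellular matrix genes were above background, with a median of 7.31. Besides *Col1a2* and *Postn*, *Mgp*, an inhibitor of calcification, was at 9.80, 9.68 and 9.77, *Sparc* at 8.71, 8.64 and 8.70 and fibronectin (*Fn1*) at 8.65, 8.47 and 8.54. Elastin (*Eln*), at 6.43, 5.58 and 5.67, and *Thbs1*, at 5.35, 4.10 and 4.20, were higher in replicate 1 than in the others. Among 12 natriuretic and secreted factors, *Igf2*, a fetal growth factor still expressed after birth, was at 8.04, 7.74 and 7.58, and *Igf1* at 4.47, 4.48 and 4.27. Of 16 immediate early genes 11 were above background, led by *Zfp36* at 6.95, 6.78 and 6.19, while *Fos* and *Fosb* stayed at or under 2.08 on every array.

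The spread between the hearts was small for most genes. Of the 10470 genes above background, 82.9% had a range under 0.5, with a median range of 0.254 and a median SD of 0.134 (n = 3). The median range fell with level, from 0.288 for genes up to a mean of 5, to 0.233 between 5 and 8 and 0.150 above 8. A range over 1 was found for 169 genes (1.61%). Of these, 126 had a mean of 5 or less, 40 between 5 and 8 and 3 above 8.

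**Figure D4:**
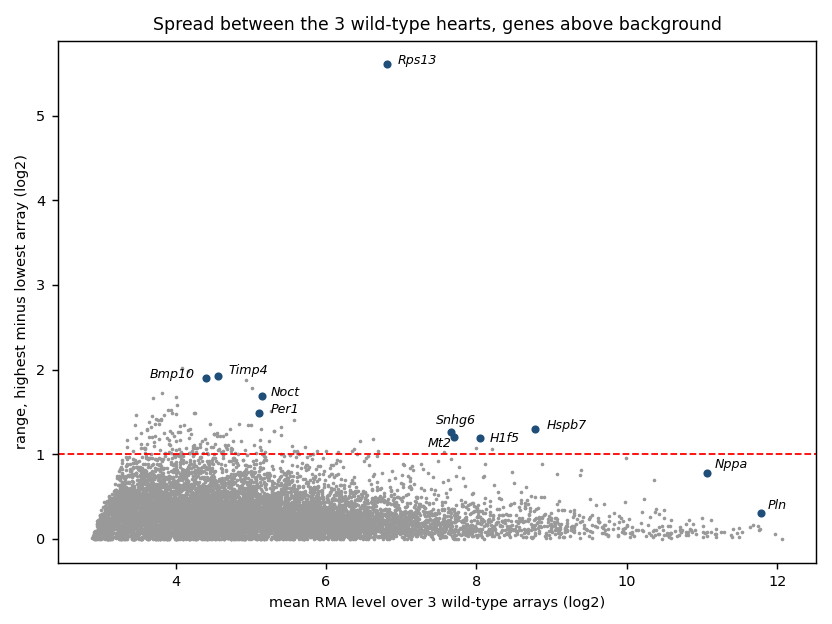
Range between the 3 wild-type arrays (log2) against the mean wild-type log2 RMA level, 1 point for each of the 10470 genes above background, with the dashed line at a range of 1 and named genes in blue. *Rps13* stands alone near the top, and the bright genes *Nppa* and *Pln* lie under the line.

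Genes that varied between wild-type hearts varied more often than others within the mutant genotypes. Of the 169, 29 (17.2%) also had a range over 1 among the *miR-1-1* null arrays, where 1.72% of all genes above wild-type background did, and 19 (11.2%) among the double-heterozygous arrays, where 1.5% did. At a wild-type mean of at least 5, the share was 7 of 43 (16.3%) in either genotype, against 1.06% and 0.854% of 4801 genes. At the thresholds of the study's array methods, given with the comparison of genotypes, 1 of the 169 was called in null hearts (*Cnn1*) and 2 in double-heterozygous hearts (*Cnn1* and *Pisd-ps3*, the latter chosen after its values were seen), where 0.126% and 0.541% of all genes were.

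Replicate 1 was the array that most often stood apart upward. It was the high one in 50 of the 169 genes and the low one in 16, while replicate 2 was high in 19 and low in 41, and replicate 3 high in 21 and low in 22. Over all genes above background, 7.37% were higher in replicate 1 than in both others by over 0.3, against 4.25% for replicate 2 and 3.74% for replicate 3. Lower than both others by over 0.3 were 2.91%, 6.55% and 5.01% of genes.

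The largest range of all genes above background belonged to *Rps13*, a ribosomal protein gene, at 3.12 in replicate 1 and at 8.58 and 8.72 in replicates 2 and 3. The 6 mutant arrays were between 8.26 and 9.79, so replicate 1 was alone in this. What its probes match, and whether its value in replicate 1 is a fault of the probe set, was not tested. The list of ribosomal protein genes does not hold *Rps13*, and none of its 17 genes above background had a range over 1. *Timp4*, an inhibitor of matrix metalloproteinases that is prominent in heart, was at 5.75, 3.83 and 4.09, and null replicate 4 was as high, at 6.10. *Snhg14*, a noncoding host gene of small nucleolar RNAs, was at 5.77, 5.27 and 3.99.

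*Mir483*, a microRNA gene within an intron of *Igf2*, was at 2.88, 4.87 and 4.76, with the mutant arrays between 4.60 and 5.53. Its host did not follow, since *Igf2* was highest in replicate 1. The mature sequences, from RefSeq for GRCm38.p6, lie on the minus strand at chr7:142654932-142654952 (3p) and chr7:142654968-142654989 (5p), and are shown because the probe set covers the precursor and does not tell the arms apart. Capitals mark the seed, bases 2 to 8, and the arms do not share one.
mmu-miR-483-3p: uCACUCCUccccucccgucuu
mmu-miR-483-5p: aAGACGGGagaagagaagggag

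The cell cycle list had the largest median range of the 35 lists. Of 31 measured, 30 were above background, with a median of 5.53. Counted over all 31, 25 were lowest in replicate 2, 23 of them by over 0.3. The median gene of the list was 0.59 lower in replicate 2 than in the mean of replicates 1 and 3, while 6.55% of all genes above background were lower there by over 0.3. Its median range was 0.77, with 8 genes over 1, against 0.254 for all genes above background.

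*Mki67*, the antigen of proliferating nuclei, was at 6.81, 6.13 and 7.11. *Top2a*, the topoisomerase of dividing cells, was at 6.69, 6.00 and 6.98. The mitotic kinase *Cdk1* was at 7.22, 6.68 and 7.54, and its cyclin partner *Ccnb2* at 7.22, 6.65 and 7.49. Replicate 2 was the low array for each, and replicate 3 the high one. The kinetochore motor *Cenpe* (5.25, 4.14 and 5.48) and the checkpoint kinase *Bub1* (5.14, 3.92 and 4.84) had wider ranges. *Mcm5*, of the replicative helicase, was at 4.76, 3.77 and 4.77. The inhibitors did not go with this group, since *Cdkn1b* was at 5.75, 6.08 and 6.13, and *Cdkn1a* at 7.36, 6.39 and 6.32.

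Beside the low cell cycle genes, 5 of the 10 macrophage markers were higher in replicate 2 by over 0.3, and the ranges of the cardiomyocyte markers stayed small. Whether the makeup of the cells in replicate 2 has a part in the difference was not tested. In the mutant arrays the list was as low in null replicate 4, with a median gene 0.38 under the wild-type mean, and between -0.07 and 0.09 in the 5 others.

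Promoters of genes transcribed in G2 and mitosis often pair CCAAT boxes with a CHR element (TTTGAA), read on both strands. In the RefSeq windows, 13 of 26 cell cycle genes found there held TTTGAA (50%), against 17.9% of all windows, and 22 of 26 held CCAAT (84.6%), against 37.4%. None of the 26 held TATAAA, which 13.6% of all windows do. The stretches of *Ccnb2* (chr9:70421535-70421704, minus strand) and *Cdk1* (chr10:69352893-69353062, minus strand) are shown as examples of genes low in replicate 2, from 150 bases before to 20 bases after the start, with both motifs in capitals.
Ccnb2: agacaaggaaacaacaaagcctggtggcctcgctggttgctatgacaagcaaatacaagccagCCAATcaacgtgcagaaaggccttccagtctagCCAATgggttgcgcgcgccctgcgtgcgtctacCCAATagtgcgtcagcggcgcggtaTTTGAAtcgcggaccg
Cdk1: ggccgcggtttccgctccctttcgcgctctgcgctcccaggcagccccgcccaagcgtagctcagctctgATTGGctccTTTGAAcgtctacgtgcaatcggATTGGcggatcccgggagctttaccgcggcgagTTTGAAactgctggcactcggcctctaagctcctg

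The capitals ATTGG in *Cdk1* are CCAAT on the other strand. In the stretches shown, *Ccnb2* held 1 CHR element and 3 CCAAT boxes and *Cdk1* held 2 of each.

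Interferon and antigen processing genes were lowest in replicate 1 and highest in replicate 3 at the list median. Of 10 measured, 8 were above background, with a median of 4.24, and the median gene was -0.28, 0.11 and 0.21 from its wild-type mean in replicates 1, 2 and 3. Lower in replicate 1 than in both others by over 0.3 were 5 of the 10, against 2.91% of all genes above background. The 5 were counted over all 10 genes, including those not above background. *B2m*, the common light chain of class I molecules, was at 10.04, 10.74 and 10.29. *Ifit1*, an interferon-induced inhibitor of viral translation, was at 3.09, 3.52 and 4.41. The peptide transporter *Tap1* was at 4.41, 4.95 and 5.16, and the immunoproteasome subunit *Psmb9* at 4.45, 5.05 and 5.32. *Isg15*, an interferon-induced ubiquitin-like protein, differed in being lowest in replicate 2, at 3.32, 2.13 and 3.57.

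Outside the list and chosen after their values were seen, the interferon-inducible GTPases *Igtp*, at 3.39, 3.93 and 4.60, and *Irgm2*, at 3.57, 4.16 and 4.55, were likewise lowest in replicate 1 and highest in replicate 3. In the mutant hearts the list was lower still, with a median gene between -0.64 and -0.31 from the wild-type mean in all 6 arrays, and the highest of these was close to replicate 1. The list was picked with earlier results of these arrays known, so it is no independent evidence of a direction.

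The interferon-type element GAAANNGAAA, read on both strands, was in the windows of 4 of the 10 list genes (40%: *B2m*, *Ifit1*, *Ifit3* and *Isg15*), against 3.44% of all windows. In the stretches shown, *Ifit1* holds the element 2 times and *Igtp* 1 time. Their stretches, at chr19:34640739-34640908 and chr11:58199406-58199575, both on the plus strand, run from 150 bases before to 20 bases after the start, with the element in capitals. In *Ifit1* it reads as the reverse complement.
Ifit1: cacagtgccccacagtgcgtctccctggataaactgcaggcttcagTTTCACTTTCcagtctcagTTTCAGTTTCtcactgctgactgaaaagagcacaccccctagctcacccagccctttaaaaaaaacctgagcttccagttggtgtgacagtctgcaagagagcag
Igtp: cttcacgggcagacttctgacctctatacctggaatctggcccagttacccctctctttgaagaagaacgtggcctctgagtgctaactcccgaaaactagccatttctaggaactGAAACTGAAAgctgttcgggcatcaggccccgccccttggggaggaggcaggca

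A further group stood out only once the values were seen, and the 20 genes given for it were listed afterwards as known targets of glucocorticoids, so the counts are a description. Of the 20, 16 were above background and 18 were highest in replicate 1. Counted over all 20, 14 were higher there than in both others by over 0.3. Among all genes above background alone, 7.37% were. *Per1*, a period gene of the clock that glucocorticoids induce directly, was at 6.04, 4.56 and 4.74. *Mt2* and *Mt1*, metal-binding metallothioneins, were at 8.49, 7.29 and 7.32 and at 8.93, 8.34 and 8.15. *Cdkn1a*, an inhibitor of the cell cycle, was at 7.36, 6.39 and 6.32. The transcription factors *Klf9* (5.12, 4.28 and 4.20) and *Zbtb16* (5.74, 2.50 and 3.14) were also highest in replicate 1.

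*Noct*, which encodes nocturnin and whose RNA has a daily rhythm in mouse tissues, was also high in replicate 1, at 6.26, 4.57 and 4.59. A list of other circadian clock genes, made after the values were seen and without *Per1*, which had been placed among the glucocorticoid targets, gave a different count. All 13 measured were above background, and 0 of these 13 were higher in replicate 1 than in both others by over 0.3. Of the 13, 7 were highest in replicate 1 by a smaller margin. Lower in replicate 3 than in both others by over 0.3 were 4, where 5.01% of all genes above background were. *Clock* was at 7.16, 7.22 and 7.17, *Cry1* at 4.76, 4.68 and 4.87, and *Nr1d1* at 5.79, 5.97 and 4.88, lowest in replicate 3. Time of day and handling at collection are not given in the labels, and their part was not tested.

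The group was also high in a mutant array. Its median gene was 0.37 above the wild-type mean in replicate 1 and 0.56 above it in null replicate 4, where *Per1* was at 6.94 and *Mt2* at 8.76. Double-heterozygous replicate 7, the other array with *Xist* signal, was at -0.37, and the remaining mutant arrays were between -0.40 and -0.04. Whether sex has a part in this group was not tested. A glucocorticoid response element was in the windows of 2 of 17 genes of the group found in the table (*Mt1* and *Sgk1*), against 0.475% of all windows. The stretch of *Mt1*, chr8:94178939-94179108 on the plus strand, is shown with that element in capitals.
Mt1: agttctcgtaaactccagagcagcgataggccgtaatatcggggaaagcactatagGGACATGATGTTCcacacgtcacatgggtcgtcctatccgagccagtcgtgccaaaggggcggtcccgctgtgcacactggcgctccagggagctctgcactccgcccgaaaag

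**Figure D5:**
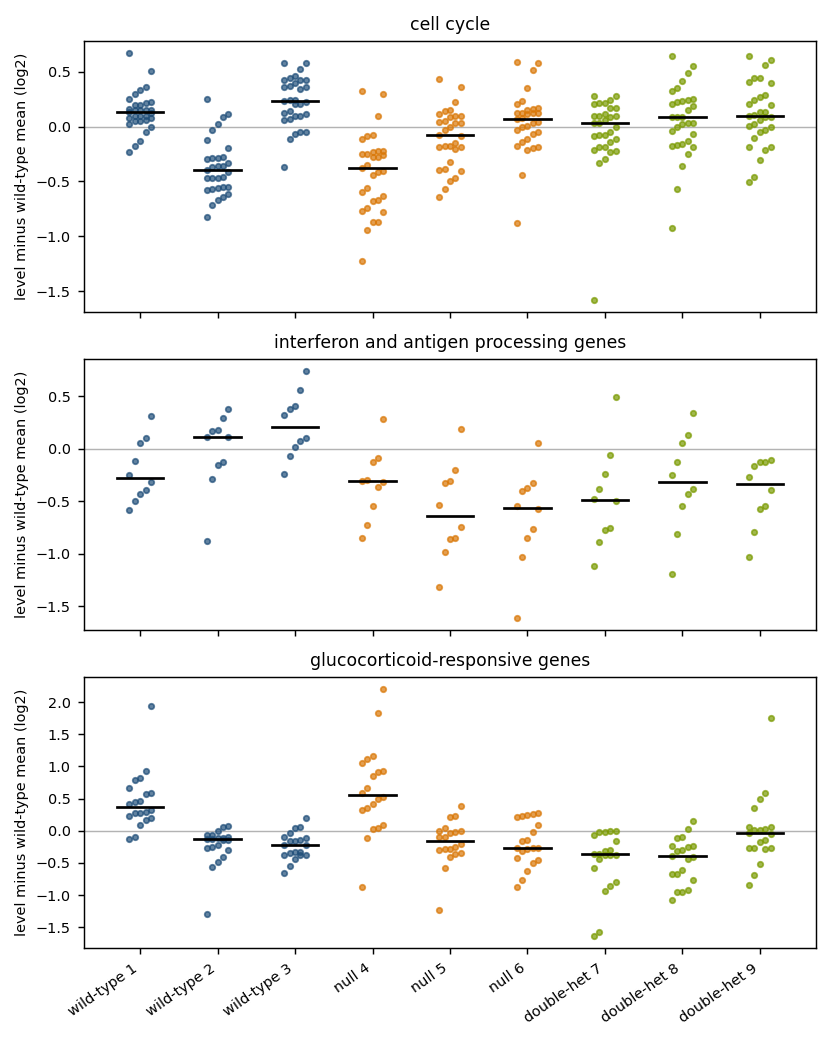
Log2 RMA level of each gene minus its wild-type mean, in each of the 9 arrays, for the cell cycle, interferon and glucocorticoid-responsive lists; points are genes, bars are the list medians and colours are genotypes. The cell cycle median is lowest in wild-type replicate 2 (-0.39) and null replicate 4 (-0.38), and the glucocorticoid median is highest in null replicate 4 (0.56) and wild-type replicate 1 (0.37).

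Replicate 1 also carried signal of genes that are not typical of heart. The secretoglobin *Scgb1a1*, the main secreted protein of airway club cells, was at 6.51 in replicate 1 and at 2.39 and 1.94 in replicates 2 and 3, with the 6 mutant arrays between 1.54 and 2.07. *Scgb3a2*, of the same family, was at 5.46, 1.48 and 1.39. Of 12 airway epithelium genes, listed after these values were seen, 2 were above background on all 3 arrays, *Krt18* at 4.95, 4.03 and 3.88 and *Scgb3a1* at 4.73, 3.88 and 3.47. Another probe set of *Krt18* was even between the hearts, at 3.87, 3.78 and 3.85. The club cell enzyme *Cyp2f2* and the epithelial genes *Epcam*, *Cdh1*, *Foxj1* and *Nkx2-1* were under the background level on every wild-type array, at 2.38 or less. The lung surfactant genes *Sftpc* (3.36, 2.29 and 2.73) and *Sftpb* (3.06, 2.36 and 3.16) were near background. Replicate 1 was also highest for *Car3*, a carbonic anhydrase of muscle and fat, at 5.99, 3.79 and 2.77, beside the *Ucp1* values above. Whether other tissue was collected with this heart was not tested.

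The wild-type arrays were last set against the mutant arrays, as the design implies, at the thresholds of the study's methods (limma, unadjusted p under 0.0025 with a fold above 1.5 or below 0.5). This called 28 of 22180 genes (0.126%) for the null genotype and 120 (0.541%) for the double-heterozygous one, both against the same wild-type arrays. With replicate 1 of the wild-type arrays dropped the null count was 48, with replicate 6 dropped it was 46, and fitted among genes above background the counts were 17 and 40. None of the 30 brightest genes was called in either (0 of 30), and of the brightest 1% 2 genes were called in each, *Myl9* and *Rpph1*. Without overlap between wild-type and mutant arrays were 3 of the 30 and 19 of the 222, where 4.76% of genes above background were. At an adjusted p under 0.05 the same fit called 0 genes in null and 4 in double-heterozygous hearts.

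Of the 443 distinct list genes measured, 4 were called in null and 3 in double-heterozygous hearts. Over all genes the shares called were 0.126% and 0.541%. The lists were chosen with earlier results of these data known, so these counts are a description. *Myl9*, a regulatory light chain of smooth muscle and nonmuscle myosin, was at 9.27, 9.27 and 9.44 in wild-type hearts and from 9.81 to 10.25 in mutant hearts. *Cnn1*, calponin of smooth muscle, was at 6.55, 5.57 and 5.52 against 6.93 to 7.80. Both were lower in every wild-type array than in any mutant array. *Xirp2*, an actin-binding protein of muscle cell junctions, was higher in the wild-type arrays, at 4.04, 4.26 and 3.95 against 2.37 to 3.46, and so was *Psmb9*, called in null hearts only, against 3.33 to 4.21.

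In limma's fit *Cnn1* differed by 1.41 ± 0.31 (SE, log2, adjusted p = 0.63) in null and 1.52 ± 0.31 (adjusted p = 0.169) in double-heterozygous hearts, and *Myl9* by 0.79 ± 0.14 (adjusted p = 0.533) and 0.74 ± 0.14 (adjusted p = 0.152). For *Xirp2* the differences were -1.30 ± 0.26 (adjusted p = 0.533) and -1.28 ± 0.26 (adjusted p = 0.169). No list gene among these passed the adjusted threshold. Among the Z-disc, M-band and titin genes, 7 of 18 did not overlap the mutant arrays, all 7 higher in wild-type hearts, among them *Myom2*, of the M-band, at 7.67, 7.89 and 7.70 against 6.86 to 7.44 and *Tcap*, the titin cap, at 6.77, 7.15 and 6.83 against 6.31 to 6.69. The background for this count is the 4.76% above.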

How the data were processed

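Expression was measured on Affymetrix mouse Gene ST 2.0 arrays in P2 hearts, 3 arrays per genotype. The authors isolated RNA with TRIzol, used a column against genomic DNA, amplified the RNA and deposited log2 values per probe set after RMA (submitters' processing notes: Affymetrix Power Tools 1.12.0). No source used here gives the genome build of the array. Probe sets were named through the platform's table, and 23328 of 23521 with 1 symbol were matched by gene ID to the gene table of GRCm38.p6. Probe sets of several symbols (1820) or none (16004) were left out. No columns were left unused.

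Deposited values were used unchanged. Range is the highest minus the lowest of 3 arrays. The fit of all 9 arrays used lmFit and eBayes (limma 3.58.1, R 4.3.3), was tested on simulated data, and gave Benjamini-Hochberg adjusted p-values over all genes. Pairs were tested by exact two-sided permutation, 3 arrays against 6, adjusted over 27 pairs. Python 3.11.15 and matplotlib 3.10.9 did the rest. The 35 lists (526 entries, 479 measured), the pairs and the rule for named genes (the 30 brightest, both genes of each pair, of each list the brightest, the dimmest and up to 4 next in level, the 20 widest ranges, 4 sex-linked genes and called genes of these) were chosen with earlier results of these data known. Many list genes described for their pattern, the genes of 3 further lists (glucocorticoid-responsive, circadian clock and airway epithelium) and *Hspb7*, *Noct*, *Igtp*, *Irgm2*, *Scgb3a2*, *Car3*, *Vmn1r233*, *Mir1a-1* and *Mir133a-2* were chosen after their values were seen. For 3555 genes 2 of the wild-type values were equal within 1e-06, which can lower their estimated variance. Alternatives were other filters, thresholds, normalization, uses of probe sets and arrays left out.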

Additional observations from a re-analysis of the deposited data

How the results depend on the processing

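Of 107 alternative values that have a direction (7 pair differences and 3 list differences), 0 reversed it. The 7 pairs were those in which the wild-type arrays did not overlap the others. Leaving out arrays or a mutant genotype, or fitting limma to the same differences, therefore could not reverse them. For those settings the 0 was fixed in advance, and the 3 list differences were added after the data were seen. The count of genes called in *miR-1-1* null hearts (28) was 17 among genes above background and 0 at an adjusted p under 0.05, and 24 to 48 with an array left out, at its highest without replicate 1 of the wild-type hearts (48) and next without replicate 6 of the null hearts (46). In double-heterozygous hearts the count (120) was 40 among genes above background, 4 at an adjusted p under 0.05, and 80 to 132 with an array left out. Exact tests passed 0 pairs, which fewer arrays could hardly change, whereas limma called 4. Genes above background (10470) numbered 6537 at the 99th percentile of the receptor genes, 15200 at their upper quartile, and 10206 to 10726 without each replicate. Genes with a range over 1 (169) numbered 580 without the filter on dim genes, and 53 to 87 over the arrays left when a replicate was dropped (53 without replicate 1, 76 without replicate 2 and 87 without replicate 3), since a range over fewer arrays is smaller by construction. Of the 30 brightest genes, 23 remained with the mean of a gene's probe sets, 21 when 9 probe sets of several symbols entered, and 29 to 30 without each replicate.

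Alternatives for 3 list differences were added after the data were seen. The median cell cycle gene was -0.59 in replicate 2 relative to the other wild-type arrays (-0.62 to -0.55), the median interferon gene 0.41 higher in replicate 3 than in replicate 1 (0.41 to 0.51), and the median glucocorticoid-responsive gene 0.55 higher in replicate 1 than in the others (0.50 to 0.55). No paired analysis was possible because the labels number the samples through the series, so that genotypes share no replicate number. With 3 arrays, a difference between hearts rests on 1 array against 2 and has no error of its own. Signal close to the background level or near the ceiling of the arrays can understate a difference.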
